A study of Mus musculus with 14 samples.

Results

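Growth factors and the receptors that read them were followed across 14 single retinal ganglion cells (RGCs) of the adult mouse. The set held 9 genes, listed by name with earlier results of these data known. They were the ligands Fgf1, Bdnf and Kitl, and the receptors Ntrk2, Ntrk3, Ngfr, Igf1r, Fgfr1 and Gfra1. The study of these cells had already named Fgf1 among genes found in most of them and Kitl among genes found in fewer. All probe sets that the array annotation ties to exactly 1 of the 9 genes were used. This gave 39 of the 34945 such probe sets on the array and 9 of its 18193 named genes. The cells came from mice carrying PV-Cre, in which Cre follows the parvalbumin gene Pvalb, together with the Ai9 reporter, which turns on tdTomato after Cre has acted, on a mixed background and used only as heterozygotes for both alleles. Red cells were picked by pipette from papain-dissociated adult retinas, and each was amplified and hybridised to its own Affymetrix array of the mouse genome. The red label shows that Cre acted at some time in the cell's history, so it need not mark current parvalbumin. All cells formed 1 group with no untreated or mutant counterpart, and no source named the animal behind a cell, so cells were not treated as replicates of a condition and an SD here is the spread between cells.

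Neurotrophins are secreted proteins that keep neurons alive and shape their connections. BDNF acts through the receptor tyrosine kinase TrkB, the product of Ntrk2, and RGCs can meet it both in the retina and at their targets in the brain. TrkC, the product of Ntrk3, is the main receptor of neurotrophin-3, and the low-affinity receptor encoded by Ngfr binds all neurotrophins. FGF1 is a broad ligand of the FGF receptors that lacks a classical secretion signal. Kit ligand binds the receptor KIT, IGF1 binds the receptor encoded by Igf1r, and Gfra1 encodes the coreceptor through which GDNF reaches the kinase RET.

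The data were MAS5 signals on a linear scale. Detection required a signal of 8 times the array's median or more, which put the threshold between 64.2 in cell 14 and 439.7 in cell 1. Each gene was read from the probe set whose log2 signals averaged highest across the cells, called its chosen probe set. Different probe sets are not on a common scale, so levels are compared between cells and never between genes. The number of probe sets detected ran from 4191 in cell 5 to 11910 in cell 12. Between 9 and 10 of 10 RGC markers were detected in every cell. Cells 3 and 6 stood apart with 8 of 9 rod markers, against 1 to 3 in the other 12 cells. At most 5 of 10 Müller glia markers, 1 of 4 astrocyte markers and 2 of 7 endothelial and pericyte markers were detected in any cell, and 3 of 7 microglia markers were detected in cell 5 and none elsewhere. Amacrine markers reached at most 2 of 8, in cell 5, and bipolar markers at most 2 of 5, in cells 2, 4 and 12. Amplification from a single cell misses many transcripts, so a gene that was not detected may still have been expressed.

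The 9 genes ranged from broad to absent. Fgf1 was detected in 11 of 14 cells, Ntrk3 in 9, Ntrk2 in 8, Bdnf in 6, Igf1r in 5, Kitl in 4 and Fgfr1 in 3, whereas the chosen probe sets of Ngfr and Gfra1 were detected in no cell. Thus 7 of the 9 genes were detected somewhere, in a whole array where 58.2% of genes were. Detection in at least 7 cells was reached by 3 of the 9, Fgf1, Ntrk3 and Ntrk2, where 24.8% of all genes reached it. With the mean over all probe sets of a gene in place of the chosen one, only Fgf1 did, in 71.4% of cells. The median gene of the set was detected in 5 cells and the median gene of the array in 1. The 9 genes have 2 to 8 probe sets each, and genes with more probe sets tended to be detected in more cells. By the chosen probe set, the median over the array was 0 cells for genes with 1 probe set and 4 with 3. It was 6 for genes with 5 probe sets and 7 with 8. The part of probe set number in these comparisons was not tested. With 14 cells the shares of cells with detection are coarse. The 95% Clopper-Pearson interval, which covers counting error only, was 49.2% to 95.3% for the 78.6% of Fgf1 and 17.7% to 71.1% for the 42.9% of Bdnf. A count of 0 of 14 allows a share of up to 23.2%. In the order of these shares no pair of neighbours had intervals that stood apart.

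**Figure D1:**
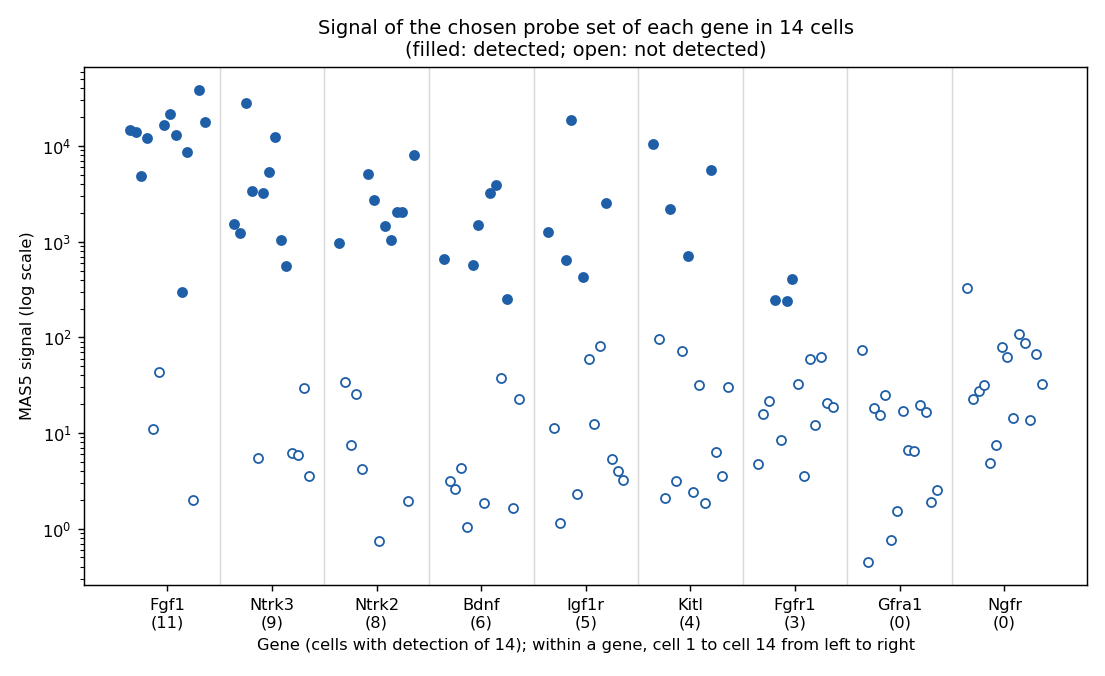
MAS5 signal (log axis) of the chosen probe set of each of the 9 genes in 14 cells, drawn from cell 1 at the left to cell 14 at the right within each gene, with filled points for detected and open points for undetected values. Fgf1, Ntrk3, Ntrk2, Bdnf, Igf1r and Kitl show a gap between the 2 kinds of points, Fgfr1 was detected in 3 cells at 239 to 408, and Gfra1 and Ngfr have open points only.

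Fgf1, detected in more cells than any other of the 9 genes, was undetected in 3. Its chosen probe set, 1423136_at, read 14881 in cell 1, 14194 in cell 2, 4824 in cell 3, 12108 in cell 4, 16417 in cell 7, 21399.7 in cell 8, 13089 in cell 9, 301 in cell 10, 8747 in cell 11, 38391 in cell 13 and 17733 in cell 14. In cells 5, 6 and 12 it read 11.05, 43.7 and 1.996. Cell 10 lay between these groups, just above its threshold of 292, and the other 10 cells with detection were all at 4824 or more. Cell 12, without Fgf1, held the largest number of detected probe sets of all cells, and cell 13, with its highest value, held 4362, the second smallest number. Pearson's r between Fgf1 and the number of probe sets detected was -0.0847 over the 14 cells, given as a description.

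Another Fgf1 probe set, 1450869_at, was detected in 6 of the same 11 cells and in no other. It read 1079.9 in cell 1, 1852 in cell 2, 2061 in cell 4, 2327 in cell 7, 224 in cell 8 and 1176 in cell 9. Cells 13 and 14, which were high for the chosen probe set, read only 86.7 and 8.44 on this one. The third probe set, 1441042_at, was detected nowhere and reached 127.8 at most. Neither of these sets called a cell that the chosen one had missed, so the count by any probe set was also 11.

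Bdnf, the ligand of TrkB, was detected in a subset of the cells. Its chosen probe set, 1422168_a_at, read 662 in cell 1, 574 in cell 6, 1480.5 in cell 7, 3269.6 in cell 9, 3934 in cell 10 and 254 in cell 12. The other 8 cells read 37.7 or less, so no cell lay near the threshold from below. The second Bdnf probe set, 1422169_a_at, was detected only in cell 4, at 1279.99, where the chosen one read 4.29. The 2 probe sets shared no cell, and their r over the 14 cells was -0.341. By either of them, 7 cells had Bdnf.

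Bdnf is transcribed from many start sites, and the RefSeq promoter table (GRCm38.p6) held 7 windows for it. Of these, 1 held the letters TGACG, a part of the cyclic AMP response element (CRE) that CREB family factors read. Neuronal activity is known to raise Bdnf through CREB, so this window is printed as an example of a Bdnf promoter. The window covers the 250 bases before a start site on the plus strand, chr2:109692186-109692435, and the capitals mark these letters, which lie on the opposite strand and so read CGTCA here, 35 bases before the start.
Bdnf promoter window: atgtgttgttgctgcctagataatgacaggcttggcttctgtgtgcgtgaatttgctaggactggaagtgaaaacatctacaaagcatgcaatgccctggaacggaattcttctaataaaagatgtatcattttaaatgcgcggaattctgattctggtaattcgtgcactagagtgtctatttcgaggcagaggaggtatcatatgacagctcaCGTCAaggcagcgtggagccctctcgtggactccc
On both strands of all 32851 windows of that length in the table, this motif was found in 17.8%, so its presence in 1 of 7 Bdnf windows is a description and no sign of use. The array does not tell which start a Bdnf signal came from. Creb1, which encodes the factor CREB, was detected by its chosen probe set in cell 12 at 214 and by any of its 6 probe sets in 7 cells.

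Kitl was detected in 4 cells by 1415855_at. It read 10387 in cell 1, 2186 in cell 4, 713 in cell 7 and 5677 in cell 11. The other 10 cells read 95.3 or less, the highest being cell 2. A further probe set, 1448117_at, was detected in 3 of these 4 cells, at 1539 in cell 1, 668 in cell 4 and 138 in cell 11. The r between the 2 was 0.898 and the highest among the chosen probe sets and their companions. The remaining probe sets of Kitl, 1415854_at and 1426152_a_at, were detected in no cell. KIT, the receptor of this ligand, was read by Kit in cell 3 alone, at 566, a cell without Kitl. No cell therefore had both, although with a threshold from the control probe sets 14.3% of cells did. Cell 3 also had 8 of 9 rod markers.

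**Figure D2:**
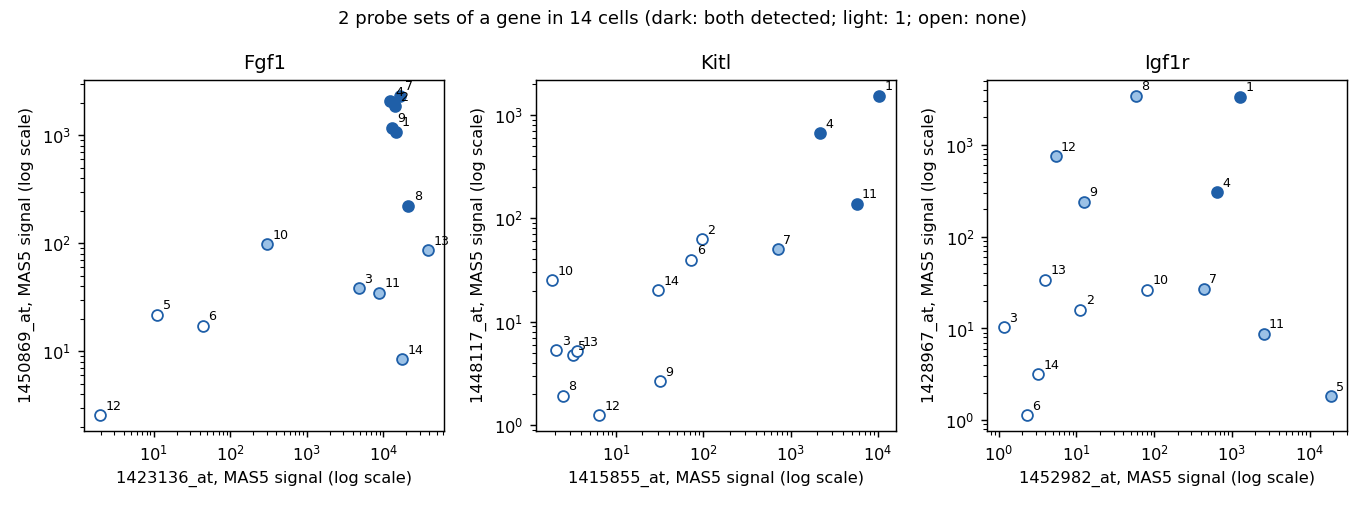
MAS5 signals (both axes log) of 2 probe sets of Fgf1, Kitl and Igf1r in 14 cells, numbered, with dark points for cells in which both were detected, light points for 1 and open points for none. The 2 probe sets of Kitl rise together (r = 0.898), all 6 cells detected by the second Fgf1 probe set lie among the 11 of the first, and those of Igf1r share only cells 1 and 4.

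Ntrk2, which encodes TrkB, was detected in 8 cells by 1458622_at. It read 975 in cell 1, 5058 in cell 6, 2740.2 in cell 7, 1463 in cell 9, 1043 in cell 10, 2039.7 in cell 11, 2039 in cell 12 and 8073 in cell 14. The 6 other cells were at 34.4 or less, and no detected value was under 975. Other Ntrk2 probe sets gave fewer calls. 1437560_at was detected in cells 2, 6, 7 and 10 at 190.3 to 1997, and 1435305_at in cells 4, 6 and 12 at 144 to 4127. 1435196_at was detected only in cell 10, at 1385, and the 4 remaining sets were detected nowhere. Through these sets cells 2 and 4 joined the 8, for 10 cells by any probe set. Ntrk2 makes a full-length kinase receptor and truncated forms that lack the kinase. Which form each probe set reads was not examined here.

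Every cell with Bdnf also had Ntrk2. These were cells 1, 6, 7, 9, 10 and 12, while cells 11 and 14 had Ntrk2 without Bdnf. By any probe set the count was 7 of 7, since in cell 4 both genes were read by probe sets other than the chosen ones. Ntrk2 was then called in 10 cells by any of 8 probe sets, and no share over all genes was computed for that count. By the chosen probe sets, 708 other genes were detected in exactly 6 cells. Of these, 9 (1.27%) had all 6 among the 8 cells with Ntrk2. Bdnf and Ntrk2 were also moderately tied to depth, with r of 0.325 and 0.326 between their log2 signals and the number of probe sets detected, and the part of depth in their overlap was not tested. Without cells 3 and 6, the 5 Bdnf cells left all had Ntrk2. When each gene was instead read from the mean over its probe sets, Ntrk2 was detected in 0 cells and no overlap was left.

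Ntrk3, which encodes TrkC, was detected in 9 cells by 1455917_at. It read 1519 in cell 1, 1243 in cell 2, 28164 in cell 3, 3361 in cell 4, 3209 in cell 6, 5402 in cell 7, 12519 in cell 8, 1039 in cell 9 and 554 in cell 10. All 5 cells without it, 5 and 11 to 14, read 29.3 or less. A companion, 1422329_a_at, was detected in 7 of these 9 cells, all but 1 and 7, at 168 to 1923, and correlated with the chosen set at r = 0.642. 1447723_at was detected in cells 7, 8 and 10. Thus each of the 9 cells but cell 1 was called by at least 1 further probe set.

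Cell 5 read differently. Its chosen Ntrk3 probe set was at 5.45, but 1433825_at read 2301 and 1425071_s_at read 1510.3 there, the only detection of the latter in any cell. By any probe set Ntrk3 thus reached 10 cells, numbers 1 to 10. Ntrk3, like Ntrk2, has forms with and without the kinase, which were not told apart. By the chosen probe sets, both Trk receptors were detected in cells 1, 6, 7, 9 and 10. By these sets cells 2, 3, 4 and 8 had Ntrk3 alone, cells 11, 12 and 14 had Ntrk2 alone, and cells 5 and 13 had neither. By any probe set 7 cells had both.

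Ngfr, the low-affinity neurotrophin receptor, was not detected by its chosen probe set, 1421241_at. The lowest, median and highest signals of that probe set were 4.87, 32.4 and 326, the highest in cell 1, whose threshold was 439.7. Another of its 3 probe sets, 1454903_at, read 3672 in the same cell 1 and at most 89.4 elsewhere, and the last was detected nowhere. Ngfr was thus detected on 1 probe set of 1 cell, although a threshold of 4 times the array median would have called the chosen probe set in 42.9% of cells. That cell had 10 of 10 RGC markers, 2 of 9 rod and 4 of 10 Müller glia markers. Cell 1 also had the highest threshold of all arrays.

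The other neurotrophin genes, like all genes of the lists below unless stated, were read from their chosen probe sets. Of all genes on the array, 24.8% were detected in at least 7 cells and 41.8% in none. Of 8 receptors and coreceptors measured, 5 were detected in at least 7 cells. Beside Ntrk2 and Ntrk3 these were Kidins220, a scaffold at Trk receptors, in all 14 cells, Sort1, which encodes the sorting receptor sortilin, in 12, and its relative Sorcs2 in 7. Among 8 partners of the Ngfr receptor, Ngfr included, the adaptor genes Bex3 and Maged1 were detected in 14 cells, Lingo1 in 13, and the Nogo receptor gene Rtn4r and the kinase gene Irak1 in 8. With the mean over all probe sets of a gene, 2 of the 8 receptors and coreceptors reached 7 cells. On the ligand side, none of 5 genes reached 7 cells by the chosen probe set. Ntf5, which encodes a further TrkB ligand, was detected in 0 cells, and Furin, a protease that matures proneurotrophins, in 4.

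**Figure D3:**
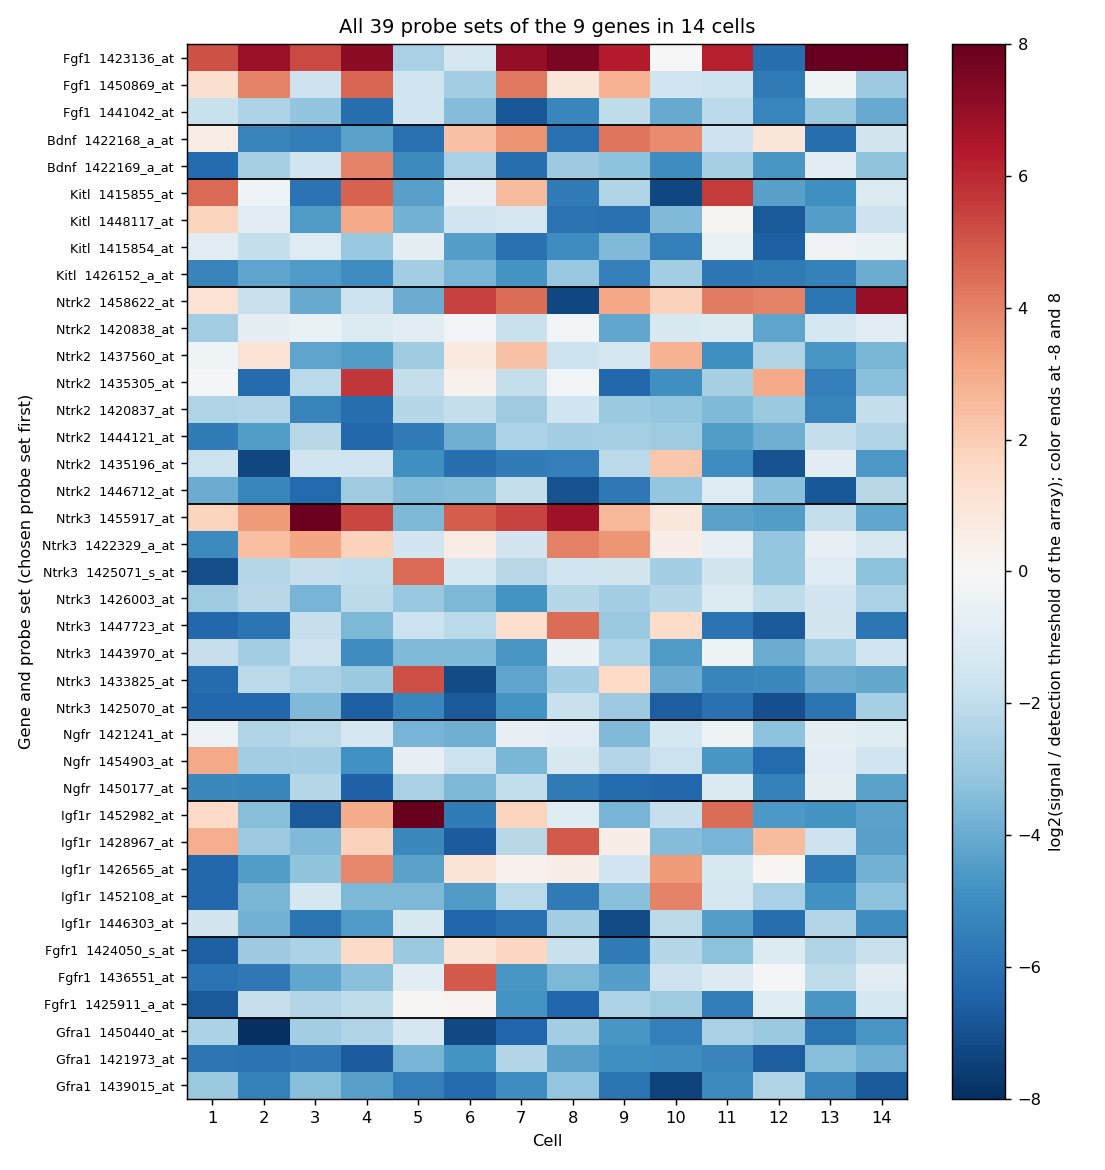
Signal of all 39 probe sets of the 9 genes (rows, chosen probe set first in each gene) in 14 cells (columns), coloured by log2 of signal over the detection threshold of the array, so that red is detected and blue is not, with the colours capped at both ends. Fgf1 is red in 11 cells, and the 3 rows of Gfra1 are blue throughout. Of the 5 rows of Igf1r, 1446303_at has no red, and the others are red in partly different cells.

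Igf1r, the receptor of IGF1, was read in partly different cells by its different probe sets. The chosen one, 1452982_at, was detected in 5 cells, with 1264 in cell 1, 646 in cell 4, 18874 in cell 5, 431 in cell 7 and 2552 in cell 11. Cell 5 was far above the rest, although it had the fewest detected probe sets of all cells. The second probe set, 1428967_at, was detected in cells 1, 4, 8, 9 and 12, at 239.7 to 3447. The third, 1426565_at, was detected in cells 4, 6, 7, 8, 10 and 12, at 146 to 3158. Of the remaining sets, 1452108_at was detected in cell 10 alone, at 4672, and 1446303_at in no cell.

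These sets agreed little. The chosen one had an r of 0.0155 with the second and of -0.0436 with the third, and only cell 4 was called by all of them. By any probe set Igf1r was detected in 10 of 14 cells, and in 6 of these by at least 2. Being called by any of many probe sets is easier, and the array as a whole shows by how much. By any probe set 26.8% of all genes reached 7 cells, but 58.8% of the 856 genes with 5 or more probe sets did. On that count 5 of the 9 genes reached 7 cells, and among them Igf1r, Ntrk2 and Ntrk3 have 5, 8 and 8 probe sets. The median gene with 5 probe sets was called in 8 cells and the median gene with 8 in 9, against 10 for each of these 3 receptors.

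In the insulin and IGF pathway around Igf1r, 6.67% of genes were detected in at least 7 cells, where 24.8% of all genes were. The median gene of this list was detected in 1 cell, as on the whole array. Of 15 genes measured, only Irs1, an adaptor of both receptors, was detected in at least 7 cells, namely in 8, at 182 to 2934. The chosen probe set of Igf1 was detected in cells 2, 4 and 9, and shared only cell 4 with the chosen Igf1r probe set. Insr, the insulin receptor gene, was detected in cells 4 and 8. Igf2r was detected by its chosen probe set in no cell.

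Fgfr1, a receptor of FGF1, was detected in few cells. Its chosen probe set, 1424050_s_at, read 245 in cell 4, 239 in cell 6 and 408 in cell 7, and at most 61.8 in the other 11 cells. 1436551_at read 3438 in cell 6 and was undetected elsewhere, with 116 in cell 12 just under the threshold of 129.98. 1425911_a_at read 68.5 in cell 5 and 133 in cell 6, both close to their thresholds of 65.3 and 112.6. Cell 6 was thus the only cell in which all 3 probe sets were detected, and it was 1 of the 2 cells with 8 of 9 rod markers. It also had 4 of 10 Müller glia markers, a number also found in cell 1 and passed in cell 4. The part of RNA from other cell types in the Fgfr1 signal of cell 6 was not tested. Without cells 3 and 6, Fgfr1 was detected in 16.7% of cells, against 21.4% with them, and at a fixed signal of 1000 the chosen probe set was detected in 0 cells.

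Ligand and receptor of the FGF pair met in cells 4 and 7 alone. The other FGF receptor genes, Fgfr2, Fgfr3 and Fgfr4, were detected in 0 cells by their chosen probe sets, and so were the FGF coreceptor genes Kl and Klb. Flrt2, which encodes a membrane protein that can bind FGF receptors, was detected in 9 cells. Of 18 FGF ligand genes, 15 were detected in no cell by their chosen probe sets, although another probe set of Fgf3 was detected in 1 cell, and beside Fgf1 only Fgf9 reached 7 cells, at 475 to 5234. The FGF homologous factors, which stay in the cell and bind sodium channels rather than FGF receptors, were a list of 4. Fgf12 was detected in all 14 cells, Fgf11 in 12, Fgf13 in 8 and Fgf14 in 2. Among 9 feedback inhibitors of receptor kinases, only Spred1 reached 7 cells, with 9.

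Gfra1, the coreceptor of GDNF, was detected by none of its 3 probe sets in any cell. The highest value of all 42 was 74.4, in cell 1, on 1450440_at, and the lowest, median and highest of the 14 values of that probe set were 0.452, 11.1 and 74.4. Partners of the family were detected. Ret, the signalling kinase, was detected in 8 cells at 104.6 to 7287, and Ncam1, an alternative partner of GDNF coreceptors, in 13. Gfra4, a relative of Gfra1, was detected in 7 cells. Gfra2 was detected in cell 14 by its chosen probe set and in 2 cells by any of its 5. Gdnf itself was detected in 0 cells and Nrtn, which encodes the related ligand neurturin, in 3.

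The number of the 9 genes detected in a cell ran from 1 in cells 5 and 13 to 7 in cell 7, with a mean of 3.29 ± 1.86 (SD, n = 14). Cell 7 had each gene but Ngfr and Gfra1, and cell 1 had 6. Cell 12, which had the most detected probe sets, had only Bdnf and Ntrk2. Cells 5 and 13 had the fewest detected probe sets, and each had 1 gene of the set, at the highest value that gene reached in any cell, Igf1r at 18874 and Fgf1 at 38391. Whether the equal trimmed mean of all arrays raised both values was not tested. Over the 14 cells the number of genes of the set and the number of probe sets detected had r = 0.520 and rho = 0.590. Without the 2 cells farthest from the median, cells 4 and 12, these were 0.695 and 0.734, while with detection at 4 times the array median r over the 14 cells was 0.153.

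**Figure D4:**
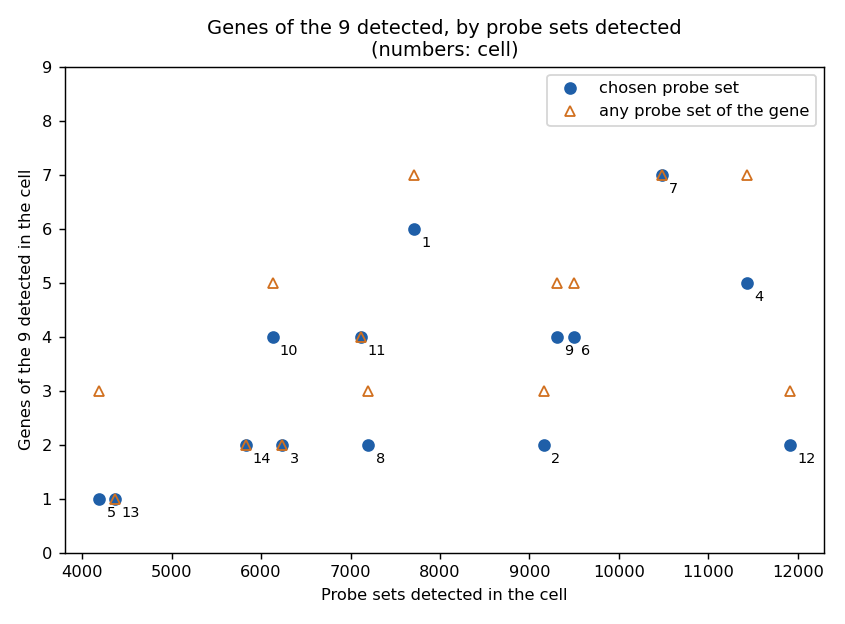
Number of the 9 genes detected in each of 14 cells (numbered) against the number of probe sets detected in that cell, for the chosen probe sets (filled circles) and for any probe set of a gene (open triangles). Cells 5 and 13 lie at the lower left with 1 gene by the chosen probe set, cell 7 reaches 7, and cell 12 has 2 despite the most probe sets.

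Across all 39 probe sets, 23 (59.0%) were detected in at least 1 cell, where 53.7% of all single-gene probe sets were. Of their 546 values 93 (17.0%) were detections, against 17.5% of the values of all probe sets. Of these detections 58 were at 1000 or more, and 16 were under 2 times their threshold. The chosen probe sets accounted for 46 detections, and in 25 of these (54.3%) another probe set of the same gene was also detected, against 49.5% over all genes with several probe sets.

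For each gene detected in at least 4 cells, the most alike genes were sought among 6882 others detected in at least 4 cells, by Pearson's r of log2(signal + 32) over the 14 cells. Ntrk2 was most like Paxx (0.925), Ctsz (0.908) and Tyro3 (0.898). Tyro3, itself a receptor kinase gene, which binds the protein of Gas6, was detected in 7 cells, all among the 8 with Ntrk2. Ntrk3 was most like Spin1 (0.895), Tshz2 (0.894) and Zyg11b (0.887), each detected in 10 cells that held all 9 with Ntrk3.

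The other 4 genes had companions of like strength. Fgf1 was most like Ube2ql1 (0.844), Atp6v1h (0.831) and Agtpbp1 (0.817), which were detected in 13 or 14 cells, the 11 with Fgf1 among them. Bdnf was most like Ostc (0.924), Anapc1 (0.903) and Spata2 (0.891). Kitl was most like Mto1 (0.946), Dipk2a (0.939) and Lsm1 (0.928). Igf1r was most like Arid4b (0.905), Tspan12 (0.861) and 1500009C09Rik (0.856). With so few cells and so many genes, high values arise easily, and the libraries differ in depth, so these are descriptions. The cells that these genes share with a gene of the set follow largely from the choice by r and are no separate result. Of the 18 genes named, 9 were still among the leading 3 when cells 5 and 13 were left out, with 3 of 3 for Bdnf and Kitl, 2 for Ntrk3, 1 for Fgf1 and 0 for Ntrk2 and Igf1r.

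Downstream of the receptors, the share of genes detected in at least 7 cells can be set beside the 24.8% of all genes. In the phosphoinositide 3-kinase, AKT and mTOR list, 10 of 15 genes (66.7%) were. They included the growth switch Rheb in all 14, Akt1 and Mtor in 13 and Tsc2, a brake on mTOR, in 11. In the RAS and MAP kinase list, 6 of 11 (54.5%) were, with Braf in 12, Map2k5 in 11 and Map2k1 in 10. Among 16 adaptors 6 (37.5%) were, with Grb2 in 11 and both Crk and Sh2b1 in 10, and among 7 genes of the phospholipase C gamma branch 3 (42.9%) were, led by Prkcb in 11. At a fixed signal of 1000 these counts were 7, 2, 3 and 1, and with the mean over the probe sets of a gene 5, 3, 2 and 1, in the same order of lists. The genes of these lists have from 1 probe set, as Rheb, to 9, as Braf. Genes with more probe sets tended to be detected in more cells, and the part of probe set number in these shares was not tested.

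The remaining lists are given with their shares of genes in at least 7 cells. The CNTF family had 1 of 7 (14.3%), the shared receptor gene Il6st in 8 cells. Other growth factors had 4 of 18 (22.2%), close to the share of all genes. These were the ligand genes Gas6 in 10, Pdgfa in 9, Nrg3 in 8 and the stress-induced factor Manf in 7. The list of other growth factor receptors had 1 of 17 (5.88%), Tyro3. Over all lists and without the 9 genes, 49 of 170 genes (28.8%) were detected in at least 7 cells, beside the 24.8% of all genes given above, and the median gene was detected in 1 cell, as on the whole array.

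**Figure D5:**
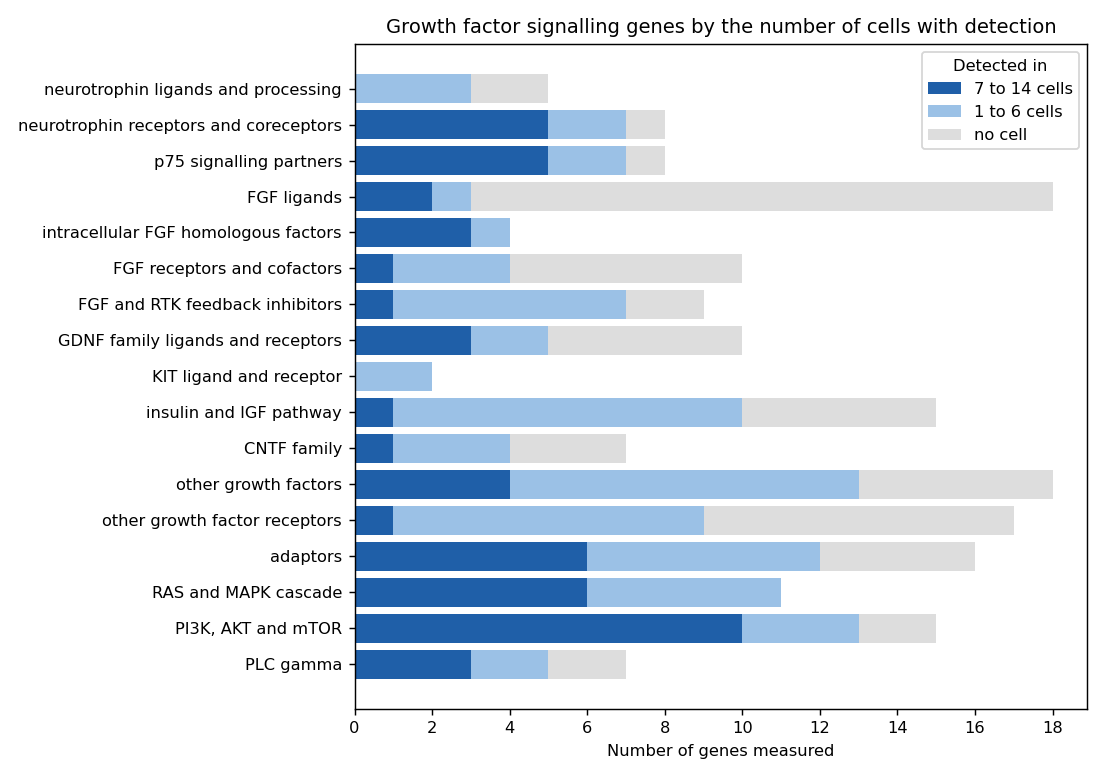
Number of genes measured in each of 17 lists of growth factor signalling genes, split by the number of cells with detection (dark: 7 to 14, light: 1 to 6, grey: none). The list of phosphoinositide 3-kinase, AKT and mTOR genes has 10 of 15 genes in the dark class, and the FGF ligands have 15 of 18 in the grey class.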

How the data were processed

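Values were taken from the deposited series table, in which the authors gave 1 signal intensity per probe set and cell, from MAS5 software of unstated version. The 2% trimmed mean was 500.0 on every array, and no further normalization was found. No scanner file or MAS5 detection call was used. Hybridisation took place at more than 1 facility, and the facility of each array is not stated. Of 45101 probe sets, 64 controls were left out and 45037 tested; the array annotation gave 1 gene to 34945, several to 932 and none to 9160. Symbols were updated through a RefSeq table of assembly GRCm38.p6 (34741 matched). Detection, the chosen probe set and the log2 scale are defined in the text.

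The 9 genes, the gene lists and the rules were chosen with earlier results of these data known. Named genes were the 9, the genes of the pathway and marker lists, and the 3 genes most like each of the 9 that was detected in at least 4 cells. Listed genes that the annotation used here does not name are not reported. No groups existed, so no test was run and correlations carry no p. Precision is limited by the number of arrays, and signals carry no interval. Alternatives covered the threshold, the choice of probe set, the pseudocount and cells left out. The counting was tested on simulated data. Python 3.11.15, numpy 2.4.6, pandas 2.3.3 and scipy 1.17.1 were used.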

Additional observations from a re-analysis of the deposited data

How the results depend on the processing

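In all, 425 alternative values were computed. The margin was 1.5 times for a count of genes, the 95% interval of the value in the text for a share of cells or a correlation, and 1 SD between cells for a mean. With 14 cells the intervals are wide, so these margins are loose. By them 379 values stayed within and 46 moved. A change of sign was looked for only in correlations, of which 0 changed sign. Of the values within, 9 were mean log2 signals with each array's log2 median subtracted and the average of these medians added back. Such a mean cannot move, so these 9 test nothing. The r between genes of the set and probe sets detected, 0.520, was 0.153 at 4 times the array median, inside its wide interval. The mean over the probe sets of a gene moved 21 values, more than any other setting. The number of the 9 genes detected in at least 7 cells went from 3 to 5 when any probe set could call a gene and to 1 with the mean over the probe sets of a gene. That mean also lowered the number of genes of the set per cell from 3.29 to 1.07, the pathway genes in at least 7 cells from 49 to 27, and the share of Bdnf cells with Ntrk2 from 100% to 0%. It averages a detected probe set with probe sets in the background. A fixed signal of 1000 lowered the pathway genes in at least 7 cells to 26 and left no cell with Fgfr1. Ngfr was called in 42.9% of cells at 4 times the array median and in 28.6% with a threshold from the control probe sets. Leaving out cells 3 and 6 moved 0 values past these margins, with Fgfr1 at 16.7% of cells in place of 21.4%, Ntrk3 at 58.3% in place of 64.3%, and 4 neurotrophin receptor and coreceptor genes in at least 6 of 12 cells in place of 5 in at least 7 of 14. With 1 array per cell, weak signals near a threshold could not be told from background. No paired analysis was possible because all cells form 1 group.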
